A study of Anthoceros agrestis with 2 samples.

Results

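The regions described here are the 1 kb bins of the *Anthoceros agrestis* Oxford genome that enzymatic methyl sequencing left largely without reads, together with the sequence that flanks them. Chromosomes AnagrOXF.S1 to AnagrOXF.S6 were divided into 124405 bins counted from position 1, and a bin was called read-free when the median depth over all its cytosines, on both strands, was 0 in the merged report. Of these bins 11800 were read-free, which is 9.49% of all bins, and neighbouring read-free bins formed 3142 runs. The bins within 5 kb of a run that were not themselves read-free are called borders and numbered 17246. The remaining 95359 bins are called the rest. Because read depth chose the read-free bins, their depth is given only as a description.

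Thalli of the wild-type Oxford strain were sampled as 4-week-old tissue, which the paper describes as after transfer to new growth medium. The 2 biological replicates were grown under a single condition, so no treatment or genotype was compared. A cytosine call is 1 read at 1 cytosine, and replicate 1 held 323429467 calls, replicate 2 held 325691541, and the report made from the merged reads of both held 648374160. The authors mapped 100 bp read pairs with Bismark, which discards a pair that fits several places of the genome equally well. Sequence present in identical copies therefore receives few or no reads in such data, whatever its methylation.

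In land plants cytosines are methylated in the CG, CHG and CHH contexts, where H is any base but G. Dense CG and CHG methylation marks many transposable elements (TEs) and other heterochromatin, whereas the bodies of most expressed genes of bryophytes carry little of it. In *A. agrestis* the paper reports very low DNA methylation on a large share of the TEs. Heterochromatin is also where repeated sequence tends to gather, and where few reads can be placed the methylation of most cytosines goes unmeasured.

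The positions of all C and G bases, and most A and T bases, are fixed by the cytosine lists, which allowed stretches of read-free sequence to be written out. Shown are 120 bases from the longest run of chromosomes 1 to 5, from the longest run of chromosome 6, and from the longest run without a repeated 100-base window, each on the plus strand of the Oxford chromosome assembly. In every case the stretch with the fewest undetermined bases was taken, a choice that leans towards C and G. Capitals mark CG dinucleotides, and every cytosine in these stretches had 0 reads.
Longest run of chromosomes 1 to 5, AnagrOXF.S3:14507931-14508050: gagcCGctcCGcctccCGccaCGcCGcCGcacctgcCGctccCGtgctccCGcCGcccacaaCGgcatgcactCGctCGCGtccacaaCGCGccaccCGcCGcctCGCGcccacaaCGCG
Longest run of chromosome 6, AnagrOXF.S6:11415851-11415970: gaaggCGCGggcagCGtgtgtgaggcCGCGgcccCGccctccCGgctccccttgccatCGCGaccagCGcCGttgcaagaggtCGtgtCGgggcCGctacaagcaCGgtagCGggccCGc
Longest run without a repeated window, AnagrOXF.S6:4350501-4350620: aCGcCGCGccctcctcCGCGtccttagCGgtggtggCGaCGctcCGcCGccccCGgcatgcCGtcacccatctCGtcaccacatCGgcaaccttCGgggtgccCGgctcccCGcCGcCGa
These stretches held 22, 17 and 19 CG dinucleotides in the order shown. With a GC content of 78.3%, 75% and 75% they were richer in C and G than their runs (54.6%, 58.5% and 61.9%), as the choice of stretch favours, and their CG density does not stand for the read-free bins in general.

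The read-free bins had a mean depth of 0.759 reads per cytosine in the merged report, against 10.1 in all other bins. In the single replicates the mean depth was 0.390 and 0.369 in read-free bins and 5.05 and 5.10 in the other bins. Every one of the 11800 bins had a median of 0 in both replicates, which the choice on their merged reads all but fixes. The name read-free holds literally for 4894 of them (41.5%), in which all cytosines were at 0. In the median read-free bin 92.3% of the cytosines were at 0, and 3050 bins held at least 1 cytosine with 10 or more reads. Just inside the limit, 660 bins had under 55% of their cytosines at 0 and a median mean depth of 2.70 reads. Just outside it, 1535 bins with a median of 0.5 or 1 had a median mean depth of 3.03 reads. The bins held assembled sequence. The fewest listed cytosines in a read-free bin were 225, and stretches of more than 50 bases without C or G touched 66 of the bins (0.559%). Elsewhere on the chromosomes there were 144 such stretches. Cytosines with an undetermined base (N) in their context numbered 61 in read-free bins and 59 in all others. Both were thus more frequent in read-free bins than their 9.49% share of all bins.

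Read-free bins lay on all 6 chromosomes but were most frequent on chromosome 6. They made up 21.4% of its bins (2515 of 11772) and 8.24% of the bins of chromosomes 1 to 5 (9285 of 112633). Chromosome 6 thus held 21.3% of the read-free bins on 9.46% of all bins. When the bins were chosen anew in each replicate, the share lying on chromosome 6 was 21.2% in replicate 1 and 21.1% in replicate 2 (21.1% ± 0.0495, SD, n = 2). Among chromosomes 1 to 5 the frequency ran between 7.17% on AnagrOXF.S5 and 9.53% on AnagrOXF.S2.

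Within chromosomes the bins were clustered. The 11 full 1 Mb blocks of chromosome 6 were read-free over 7.4% to 69.6% of their bins, with a median of 15%, and the 110 full blocks of chromosomes 1 to 5 over 0.6% to 43.1%, with a median of 6.05%. The highest block was AnagrOXF.S6:10000001-11000000, with 696 of 1000 bins. The incomplete block beside it, up to the end of the chromosome at 11771726, had 353 of 772 bins (45.7%). The other 10 full blocks of chromosome 6 did not exceed 22.7%, so that much of its excess lay at this end. The highest block of chromosomes 1 to 5 was AnagrOXF.S4:7000001-8000000, with 431 of 1000 bins.

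**Figure D1:**
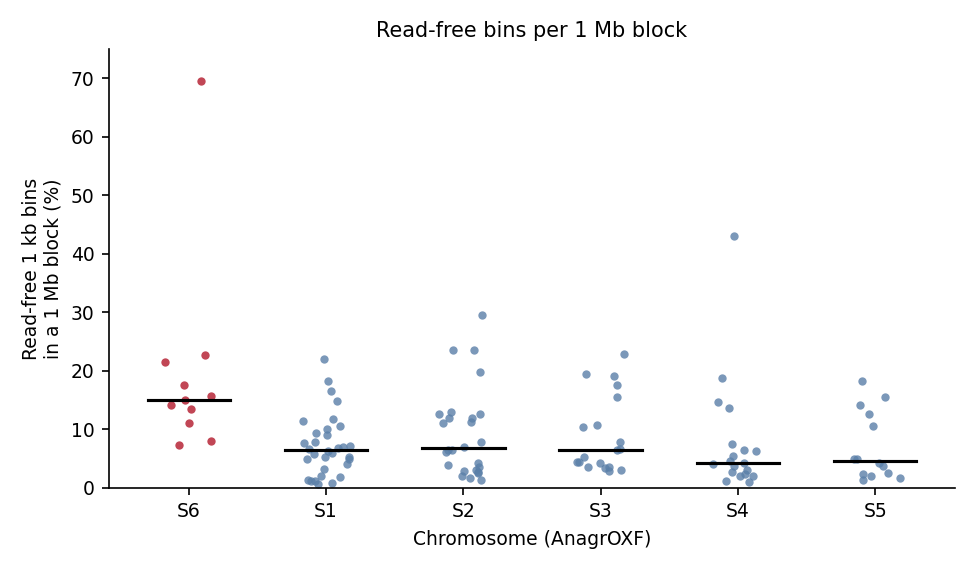
Share of 1 kb bins that were read-free in each full 1 Mb block (y axis, %), by chromosome (x axis). Points are blocks, red for chromosome 6 and blue for chromosomes 1 to 5, and black lines are medians over the blocks. The block at 69.6% stands apart from the other 10 blocks of chromosome 6.

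Most runs were short, but a minority of long runs held much of the sequence. Of the 3142 runs, 1345 (42.8%) were single bins, 1141 spanned 2 to 4 bins and 398 spanned 5 to 9. The 258 runs of 10 bins or more were 8.21% of the runs and held 40.8% of the read-free bins. This share was 48.9% on chromosome 6 and 38.6% on chromosomes 1 to 5, and the median run was 2 bins on every chromosome. The longest run was AnagrOXF.S6:11411001-11488000, with 77 bins, of which 62 had all cytosines at 0. The next on chromosome 6 spanned 50 bins at AnagrOXF.S6:10419001-10469000 and 42 bins at AnagrOXF.S6:10889001-10931000, so that all 3 lay in the crowded end of the chromosome. The longest of chromosomes 1 to 5 were AnagrOXF.S3:14483001-14556000 with 73 bins, AnagrOXF.S4:3157001-3227000 with 70 bins and AnagrOXF.S2:15470001-15519000 with 49 bins.

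**Figure D2:**
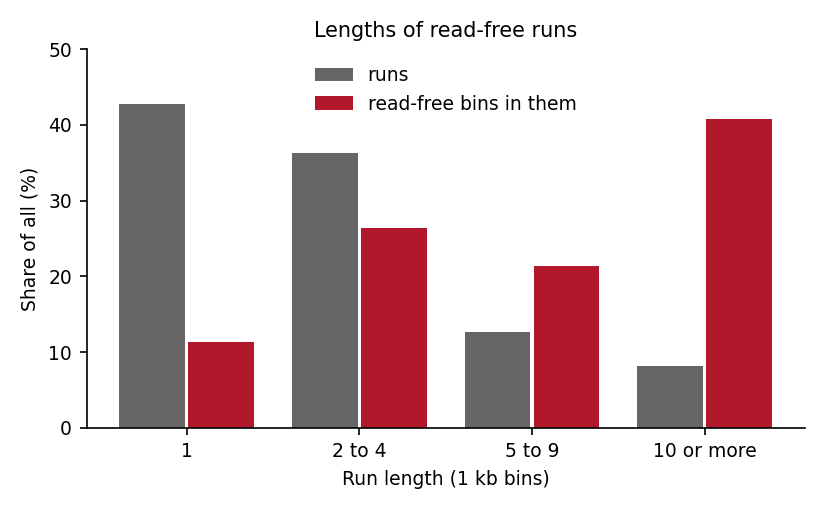
Share of all runs (grey) and of all read-free bins (red), in % (y axis), by run length in 1 kb bins (x axis). Runs of a single bin are the most frequent at 42.8%, while runs of 10 or more bins hold 40.8% of the bins.

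The read-free bins were set apart by their base composition. Their GC content was 52.3%, against 48.9% in all other bins, and 13.7% of them reached a GC content of 60%, against 3.82% of the others. The frequency of read-free bins was 4.91% among bins of under 40% GC and 39.9% among bins of 65% GC or more. The difference was larger for CG dinucleotides, of which read-free bins had 56.3 per kb and other bins 36.9 per kb. The ratio of observed CG dinucleotides to the number expected from the C and G content was 0.823 in read-free bins and 0.617 in the others. On single chromosomes this ratio lay between 0.779 and 0.837 in read-free bins and between 0.610 and 0.627 in the others, with no overlap. It was also higher in read-free bins within each of 5 classes of GC content, for instance at 0.667 against 0.553 between 45% and 50% GC and at 0.985 against 0.785 at 60% GC or more.

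Not all contexts were enriched alike. CHG sites as a whole were less dense in read-free bins (88.4 per kb, against 102 per kb in other bins). CAG with its complement CTG, a symmetric CHG site, stood at 26.0 per kb in read-free bins, against 40.9 per kb in the others, whereas CCG with its complement CGG stood at 36.3 per kb, against 19.9 per kb. The high CG ratio of read-free bins was not that of methylated sequence in general. Bins with reads that were methylated (CG level of at least 50% and CHG level of at least 30%) had an observed to expected CG ratio of 0.630 and unmethylated ones (both levels below 5%) a ratio of 0.644. Their GC content was 47.3% and 51.9%, so the mean GC content of unmethylated bins was close to that of read-free bins. CAG with CTG stood at 34.9 per kb in methylated and 47.0 per kb in unmethylated bins, and CCG with CGG at 18.6 and 24.6 per kb. A low density of CAG and CTG was thus partly shared with methylated bins. No composition was compared by a test, since neighbouring bins and copies of a repeat share their sequence.

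**Figure D3:**
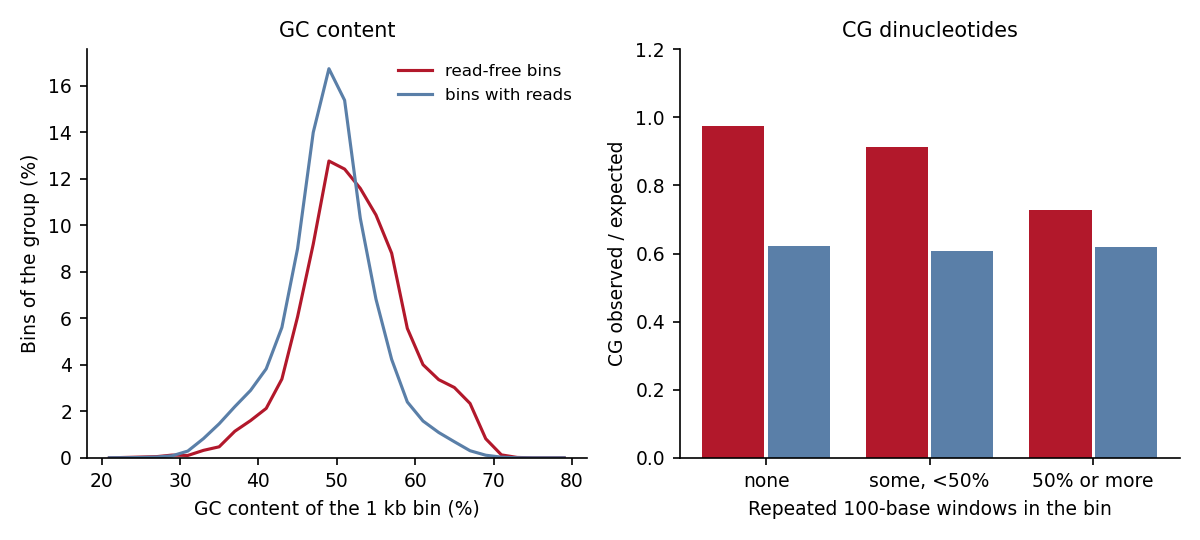
Left, GC content of 1 kb bins (x axis, %) as the share of bins of each group (y axis, %), in steps of 2 percentage points. Right, observed over expected CG dinucleotides (y axis) by the share of repeated 100-base windows in a bin (x axis). Red marks read-free bins and blue all other bins. The red bars fall with repetition, with 0.976 in bins without a repeated window, while the blue bars lie between 0.607 and 0.621.

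Much of the read-free sequence was exactly repeated, but not all of it. A 100-base window was called repeated when the same order of C, G and A-or-T occurred elsewhere in the assembly on either strand, unplaced scaffolds included. Since A and T are not told apart, this can overstate identity. Windows touching a stretch of more than 50 bases without C or G were left out, and exact copies there are missed. Of the windows of read-free bins 54.6% were repeated, against 9.06% in all other bins. With windows of 30 bases the shares were 78.6% and 25.2%, and with windows of 200 bases 39.6% and 3.65%. Of the 2146 bins in which every window was repeated 95.6% were read-free, and of the 74466 bins without a repeated window 1.26% were, beside the 9.49% of all bins.

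The last class holds 941 read-free bins (7.97% of them), for which an exact copy as long as a read was not found. Reads were missing there more completely than in read-free bins at large, though read-free bins with every window repeated came near. Of the latter, 64.4% had all cytosines at 0, and their mean depth was 0.108 reads in replicate 1 and 0.0942 in replicate 2. All cytosines were at 0 in 77.2% of the 941 bins, and the mean depth was 0.0832 reads in replicate 1 and 0.0878 in replicate 2. Other bins without a repeated window had 5.20 and 5.34 reads, a contrast that the choice on depth fixes. Even among windows of 30 bases 19.6% were repeated in the 941 bins, against 5.93% in the other bins without a repeated 100-base window. A description of the read-free bins as sequence that short reads cannot place is thus not borne out by exact copies in these bins. Inexact copies were not searched, and their part was not tested. A further 4365 read-free bins had some but under 50% of their windows repeated, so exact copies covered only part of them too.

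Of the 3 classes of repetition compared, these bins without a repeated 100-base window showed the largest difference in the CG ratio. Their GC content was 55.2%, against 48.9% in other bins without a repeated window, and the observed to expected CG ratio was 0.976, against 0.621. CAG and CTG stood at 17.4 per kb, against 42.0 per kb, and CCG with CGG 47.0 per kb, against 20.02 per kb. In read-free bins with some but under 50% of their windows repeated the CG ratio was 0.912, against 0.607 in other bins of that class. With 50% or more of the windows repeated it was 0.727, against 0.620. Among bins without a repeated window the read-free share was 0.207% below 40% GC and 11.9% at 65% GC or more, so that GC content and missing reads moved together in this class as well. The part of GC content in the missing reads was not tested. On chromosome 6, 7.002% of the bins without a repeated window were read-free (238 of 3399), against 0.989% on chromosomes 1 to 5 (703 of 71067).

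Whole runs without a repeated window were rare, with 57 runs of 76 bins in total. The longest, AnagrOXF.S6:4349001-4360000, spanned 11 bins with a GC content of 61.9%, and its 6806 cytosines received 29 calls in replicate 1 and 17 in replicate 2. The next, AnagrOXF.S5:3253001-3256000, spanned 3 bins with 57.7% GC and received 0 calls at 1730 cytosines in both replicates. The third, AnagrOXF.S1:24984001-24986000, spanned 2 bins with 59.8% GC and received 36 calls in replicate 1 and 89 in replicate 2. Several other runs without a repeated window also spanned 2 bins.

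**Figure D4:**
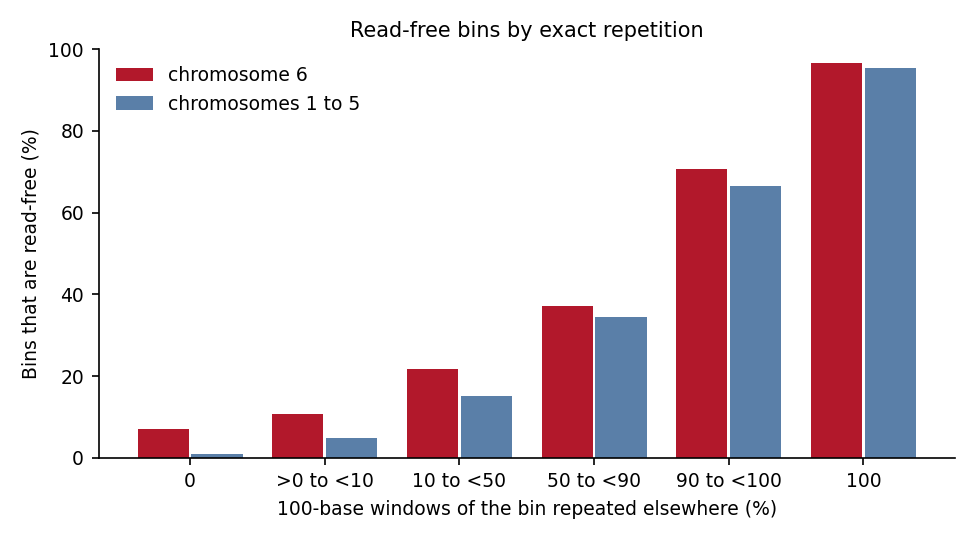
Share of bins that were read-free (y axis, %) by the share of their 100-base windows repeated elsewhere in the assembly (x axis, %), for chromosome 6 (red) and chromosomes 1 to 5 (blue). The share lies at 7.002% and 0.989% in bins without a repeated window and at 96.8% and 95.3% in bins in which every window was repeated.

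The copies of read-free sequence lay mostly outside the run itself. Over all chromosomes together they were less dispersed than those of other repeated sequence, but for chromosome 6 this contrast was small. Of the repeated windows of read-free bins, 74.3% had a copy in another read-free run, 50.2% in a chromosome bin with reads, 22.0% on an unplaced scaffold and 12.4% within the same run, where a window can count in several classes. For 54.2% a copy lay on another chromosome, against 68.4% of the repeated windows of bins that were not read-free. The nearest copy lay within 10 kb for 18.4%, against 9.81%. Every other copy lay in read-free bins of the chromosomes for 38.8%, against 8.66%. Tandem arrays that filled most of a long run were few. Arrays in part of a run or of diverged units would be missed by the measure used, and shorter runs were not counted. A shift of at least 20 bases at which 80% or more of the bases matched was found in 7 of the 258 runs of 10 bins or more, for example a shift of 8834 bases with a match of 100% over the 28 bins of AnagrOXF.S2:17256001-17284000. The longest runs differed widely in repetition. In the run of 70 bins on AnagrOXF.S4 81.3% of the windows were repeated, mostly with copies in other runs (66.1% of its windows). In the run of 73 bins on AnagrOXF.S3 49.9% were repeated and 42.1% had a copy within the run itself. In the run of 50 bins on AnagrOXF.S6 the share was 6.81%, below the 9.06% of bins that were not read-free.

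The borders of the runs were more methylated than the rest of the genome in all contexts. The CG level of chromosomes 1 to 5 was 64.97% in borders (448395 cytosines with at least 10 reads) and 27.7% in the rest (3828537 cytosines). In replicate 1 the CG level was 67.0% in borders and 29.1% in the rest, and in replicate 2 it was 64.9% and 27.7%. The difference was 37.6 ± 0.537 percentage points (mean ± SD, n = 2), and the values of borders and rest did not overlap. The CHG level was 43.0% in borders and 13.6% in the rest, with a difference of 29.6 ± 0.739 points over the replicates. CHH methylation was low throughout, at 1.49% in borders and 0.594% in the rest, with a difference of 0.916 ± 0.0142 points. With 2 replicates an exact sign-flip test cannot give a two-sided p below 0.5, so none was made.

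On chromosome 6 the borders stood out less from a rest that was itself highly methylated. The CG level was 86.9% in borders and 79.1% in the rest in replicate 1, and 86.2% in borders and 77.6% in the rest in replicate 2, a difference of 8.23 ± 0.563 points. The CHG difference was 7.67 ± 0.174 points (59.9% in borders and 52.1% in the rest in the merged report), and the CHH difference 0.227 ± 0.0101 points (1.61% and 1.39%). Whether the differences on chromosome 6 and on chromosomes 1 to 5 are unequal was not tested.

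The differences on chromosome 6 depended on how reads were weighted. When methylated reads were divided by all reads of a region, rather than averaging over cytosines, borders were below the rest in CG, at 76.5% against 77.6%, a difference of -1.095 points. The same calculation gave a CHG difference of 3.79 points and a CHH difference of 0.00074 points. A set of 392 very deep CG cytosines (100 reads or more) in 31 border bins held 14.5% of the CG reads of the borders and was 17.3% methylated. Without cytosines of that depth the CG calculation gave 86.6% in borders and 77.6% in the rest. Most of these reads lay in 6 neighbouring bins, AnagrOXF.S6:8235001-8241000, in which the mean depth was 234 to 1463 reads per cytosine and the CG level of the very deep cytosines 0.0758% to 0.234%.

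Methylation declined with distance from a run. On chromosomes 1 to 5 the CG level was 77.2% in the adjoining bin, 53.2% at 5 kb, 36.0% at 10 kb and 26.4% beyond 10 kb. The CHG level at these distances was 52.6%, 33.7%, 20.9% and 12.4%, and the CHH level 1.91%, 1.09%, 0.786% and 0.564%. On chromosome 6 the CG level was 89.7% in the adjoining bin and 82.2% at 5 kb, and at 10 kb, with 76.3%, it no longer exceeded the 78.1% found beyond. Depth and repetition changed along the same axis. On chromosomes 1 to 5 the adjoining bins had a mean depth of 7.69 reads and 48.9% repeated windows, against 10.3 reads and 3.90% beyond 10 kb, and 29.8% of their cytosines had 10 or more reads, against 56.9%. The level of a border therefore describes the cytosines that could be covered.

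**Figure D5:**
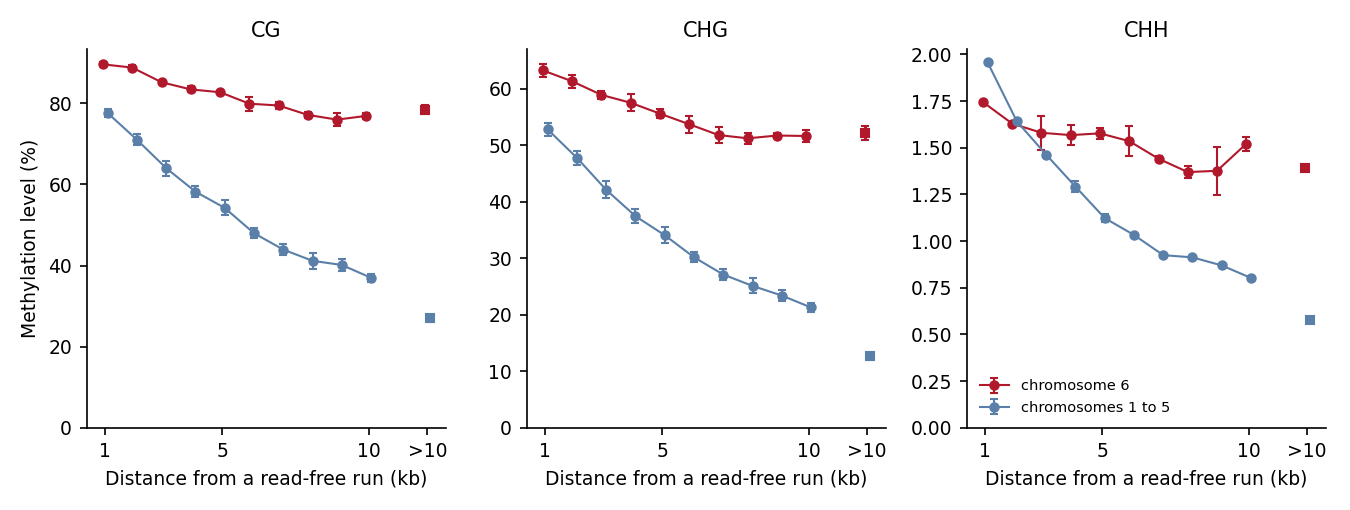
Methylation level in the CG, CHG and CHH contexts (y axes, %) by distance from the nearest read-free run in kb (x axis), for chromosome 6 (red) and chromosomes 1 to 5 (blue). Points are means of both replicates with SD (n = 2), over cytosines with at least 5 reads, and squares stand for bins more than 10 kb away. On chromosomes 1 to 5 CG methylation is 77.6% in the adjoining bin and 26.98% beyond 10 kb.

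The difference was smaller in bins without a repeated 100-base window. Among bins of chromosomes 1 to 5 without a repeated window the CG level was 39.9% in 3391 border bins and 21.2% in 66973 bins of the rest, a difference of 18.8 ± 0.204 points over the replicates. In the same bins the CHG level was 24.7% in borders and 8.60% in the rest, and the CHH level 0.635% and 0.366%. On chromosome 6 these bins gave a CG level of 81.7% in 467 border bins and 76.1% in 2694 bins of the rest. This restriction was chosen after seeing the data.

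Methylated bins were more frequent in borders than in the rest. A bin was scored when 10 reads or more had reached at least 5 of its CG sites and as many CHG sites, which 92.2% of the border bins of chromosomes 1 to 5 reached. Of these, 69.7% were methylated (9127 of 13099), against 27.7% in the rest and 33.1% of all scored bins outside the read-free bins. Unmethylated bins were 17.7% of the borders and 46.9% of the rest, beside 43.1% of all scored bins. On chromosome 6 methylated bins were 88.6% of the scored border bins (2482 of 2802), against 79.3% in the rest and 82.2% of all scored bins, and unmethylated bins 4.71% in borders, against 8.45% in the rest and 7.28% of all. Over methylated bins alone, which are chosen on the CG and CHG levels so that these 2 are held close by the choice, the levels on chromosomes 1 to 5 were 94.6% in borders and 94.0% in the rest for CG, 66.9% and 63.9% for CHG, and 2.10% and 1.93% for CHH. The difference over the replicates was 0.689 ± 0.0880 points for CG, 3.05 ± 0.0179 points for CHG and 0.186 ± 0.0235 points for CHH. Among CHH trinucleotides of methylated bins of all chromosomes the difference was largest in CAA, at 5.91% in borders and 5.04% in the rest, and in CTA, at 3.62% and 3.09%.

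Seen run by run, methylated sequence on both sides was the common state but not the only one. Of the 2411 runs of chromosomes 1 to 5 that could be scored on both sides, 63.5% had a CG level of at least 50% on both, 25.3% on one side and 11.1% on neither. Pairs of 5 kb stretches 2 kb apart in sequence without read-free bins reached that level on both sides in 11.7% of 7352 cases. On chromosome 6 it was 85.9% of 594 runs, against 72.4% of 508 such pairs. Among the pairs of chromosomes 1 to 5, 30.1% reached it on one side and 58.2% on neither. Both sides were below 5% in 42 runs of chromosomes 1 to 5 (1.74%), against 7.67% of the pairs, and in 0 runs and 0 pairs of chromosome 6. The name methylated borders thus fits most runs and not all. The CG level of borders of chromosomes 1 to 5 was 72.6% beside runs with under 10% of their windows repeated, 75.3% at 10% to 50%, 64.9% at 50% to 90% and 51.4% at 90% or more, so that the most repeated runs had the least methylated borders. Run length showed no such order, with 68.2% beside single bins and 68.7% beside runs of 10 bins or more.

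The longest runs showed the same variety. The run of 77 bins on AnagrOXF.S6 had a CG level of 98.0% on its left side (29 cytosines) and 96.1% on its right (195 cytosines). On the same chromosome the run of 50 bins had 74.2% on the left (165 cytosines) and 90.2% on the right (102 cytosines). For the run of 42 bins there the values were 22.9% on the left (15 cytosines) and 98.3% on the right (11 cytosines). The run of 73 bins on AnagrOXF.S3 had 8.66% on the left (56 cytosines) and 94.9% on the right (63 cytosines). The run of 70 bins on AnagrOXF.S4 had 81.9% on the left (197 cytosines) and 47.1% on the right (44 cytosines). For the run of 49 bins on AnagrOXF.S2 they were 6.59% (36 cytosines) and 57.5% (307 cytosines). The 3 longest runs without a repeated window were alike, with CG levels between 93.4% and 97.2% and CHG levels between 62.7% and 71.7% on all 6 sides.

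A small part of the read-free bins could be read directly. Of their 6174799 cytosines 139001 (2.25%) had at least 10 reads, against 54.0% of the cytosines of other bins. At these cytosines the CG level was 87.9% on chromosome 6 and 78.5% on chromosomes 1 to 5, the CHG level 63.4% and 54.1%, and the CHH level 1.84% and 2.16%. Over the replicates the CG level was 87.2% ± 0.0429 on chromosome 6 and 78.3% ± 1.11 on chromosomes 1 to 5 (SD, n = 2). In the adjoining border bins the CG level was 89.7% and 77.2%. The covered cytosines are the minority that reads reached and do not stand for the bins as a whole.

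Only part of the annotation was used here, and it says little about how many features lie in read-free bins. Coordinates were at hand for 2000 genes and 1996 TEs, each from cluster 1 of chromatin clusters defined on mapped reads of other libraries. This choice by itself favours sequence that reads reach. The clusters whose weak signal the paper ascribes to likely difficult mapping were not among them. A single gene, AnagrOXF.S4G343200 (AnagrOXF.S4:14724448-14725000), lay wholly in read-free bins (0.05% of the genes), and 29 lay partly in them. Its 300 cytosines included 178 without a read, and 92.8% of the windows of its bins were repeated. Of the TEs 7 (0.351%) lay wholly and 12 partly in read-free bins, beside the 9.49% of all bins that were read-free. The longest, TE_homo_52992 (448 bases, AnagrOXF.S3:14060390-14060837), had 123 of 225 cytosines without a read. The next, TE_homo_9219 of 338 bases, had 22 of 153, and the third, TE_homo_58685 of 236 bases, had 0 of 124, so that it lay in the covered part of its bin.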

How the data were processed

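EM-seq libraries of 2 biological replicates of 4-wk-old thalli were analysed. The authors deposited counts of methylated and unmethylated reads for each cytosine of 463 scaffolds, without normalization, per replicate and for the merged reads. They used SAMtools 1.9, BEDTools 2.27.1, Trim Galore, Bismark with Bowtie2, and removal of duplicates. Levels were methylated reads over all reads, averaged over cytosines with at least 10 reads (merged) or 5 reads (replicates). Median depth was 9 reads per cytosine in the merged report and 4 in each replicate, so that single cytosines are coarse. The assembly was rebuilt from the cytosine lists as C, G and A-or-T, and windows touching more than 50 bases without C or G were left out. The runs named were the 3 longest of chromosomes 1 to 5, of chromosome 6, and without a repeated window, and the genes and TEs those wholly in read-free bins, at most the 5 longest. Members and lists were chosen with earlier results of these data known. Alternatives were other bins, coverage limits, border widths and window lengths. The procedure was tested on simulated data. Python 3.11.15, NumPy 2.4.6, Numba 0.67.0, PyArrow 21.0.0 and Matplotlib 3.10.9 were used.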

Additional observations from a re-analysis of the deposited data

How the results depend on the processing

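The number of read-free bins was 11800, and it was 6335 with at least 90% of cytosines at 0 reads, 5810 with bins of 2 kb and 23993 with bins of 500 bases. The share on chromosome 6 (21.3%) was 21.4%, 21.1% and 21.2% under these settings and 21.2% with bins shifted by 500 bases, and the GC difference (3.39 points) 3.71, 3.19, 3.505 and 3.45 points. With 1 replicate left out there were 12766 to 13235 bins, a share of 21.1% to 21.2% and a GC difference of 3.26 to 3.32 points. The repeated share of read-free bins (54.6%, 45.5 points above other bins) was 69.4% (52.1 points) with windows of 50 bases, 39.6% (36.0 points) with 200, 78.6% (53.4 points) with 30, added after seeing the data, and 56.1% (46.2 points) with G told only from all other bases.

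Border differences are given for CG, CHG and CHH in turn. On chromosomes 1 to 5 (37.3, 29.4 and 0.892 points) they were 28.1, 22.5 and 0.660 with 10 kb on each side, 44.2, 35.1 and 1.13 with 2 kb, 44.5, 33.5 and 1.01 with at least 20 reads, 38.7, 30.5 and 0.909 with methylated reads divided by all reads, and 18.7, 16.1 and 0.269 in bins without a repeated window, added after seeing the data. CG and CHH were 37.8 and 0.947 with at least 5 reads and 37.8 and 0.854 for runs of at least 2 bins, and CG 36.7 with 10 to 27 reads. On chromosome 6 (8.42, 7.82 and 0.221 points) they were 5.05, 4.85 and 0.173 with 10 kb, 10.3, 9.68 and 0.264 with 2 kb, 11.8, 10.6 and 0.111 with at least 20 reads, 7.73, 7.41 and 0.258 with at least 5 reads, and 5.63, 3.76 and 0.0689 in bins without a repeated window. Methylated reads divided by all reads gave -1.095, 3.79 and 0.00074, and the CG value was 9.01 without cytosines of 100 reads or more. With 1 replicate left out, CG was 37.2 to 37.9, CHG 29.1 to 30.1 and CHH 0.905 to 0.926 on chromosomes 1 to 5, and 7.83 to 8.63, 7.55 to 7.80 and 0.2201 to 0.234 on chromosome 6. Of 66 border values under alternatives 65 were positive, which is a description only, since all settings reuse the same 2 libraries. The cause of the other shifts was not tested. Each border difference of a replicate was taken within that library. Depth limits the border levels to the cytosines that reads reached, and 2 replicates leave the SD imprecise.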
